A study of Mus musculus with 4 samples.

Results

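The genes described here handle iron and heme in cultured mouse dendritic cells (DC), the antigen-presenting cells of the immune system. They are Tfrc, Slc11a1, Slc11a2, Slc40a1, Fth1, Hmox1, Flvcr2, Lcn2, Aco1 and Ireb2, and their members are the probe sets annotated with one of these 10 genes as the only symbol. That rule found 20 of the 22690 probe sets in the table. Of these, 17 were ordinary probe sets and entered the test, and 3 were control probe sets for segments of the Tfrc transcript, which are described apart from it. RNA was measured on 4 Affymetrix arrays. Immature DC had 2 of them, and NKT-modulated DC, which had met natural killer T (NKT) cells, lymphocytes that recognise lipid antigens, had the other 2. All 4 samples were bone marrow DC of strain C57BL/6, and neither a deletion nor a transgene is named in the labels. The treatment of the NKT cells, the length of the culture and the age of the mice are not described here. The series' design speaks of repeated triplicates, whereas 2 arrays per group were analysed here, and how these relate to the triplicates is not stated. No source used states that the arrays of a group came from separate cultures, so the spread behind the p-values is that between these 4 arrays and may be technical.

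Iron enters most cells as transferrin bound to the transferrin receptor, is released in endosomes, and leaves through ferroportin, while a surplus is kept in ferritin. Iron regulatory proteins sense cellular iron and bind hairpins in the mRNAs of the receptor, ferritin, ferroportin and the endosomal transporter, which alters the stability or the translation of these mRNAs. Myeloid cells also take up heme from dying red cells, break it down with heme oxygenase, and withhold iron from microbes with NRAMP1 and lipocalin 2. C57BL/6 mice carry a natural variant of Slc11a1 that impairs its protein, which limits these cells as a model of that transporter.

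Of the 10 genes, Slc40a1, Flvcr2, Tfrc and Aco1 were lower in NKT-modulated DC and Slc11a2 was higher, each at an adjusted p under 0.05. Fth1, Hmox1, Slc11a1, Ireb2 and Lcn2 did not pass. The widest changes were those of Flvcr2 and Slc40a1. On the log2(signal + 16) scale Flvcr2 changed by -2.10, a size that moved between -2.79 and -1.27 with other added constants, and Slc40a1 changed by -1.40, or 2.64-fold lower. Slc40a1 was the member whose call held with any single array left out. Of the 17 probe sets tested, 2 were higher, 5 were lower and 10 did not pass. Over all 22626 probe sets tested, 5.36% were called higher and 5.7% lower, 11.1% in all. The share of called members, 41.2%, describes genes that were chosen with earlier results of these data known, and nothing is inferred from it. The median log2 change was -0.14 over the 17 member probe sets and -0.03 over all probe sets. The values of the groups did not overlap in 13 of the 17, or 76.5%, compared with 53.5% of all probe sets. Calls over the whole table leaned on the scaling, with 48.5% of them higher as reported, 36.6% without further normalization and 56.2% after cyclic loess normalization.

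**Figure D1:**
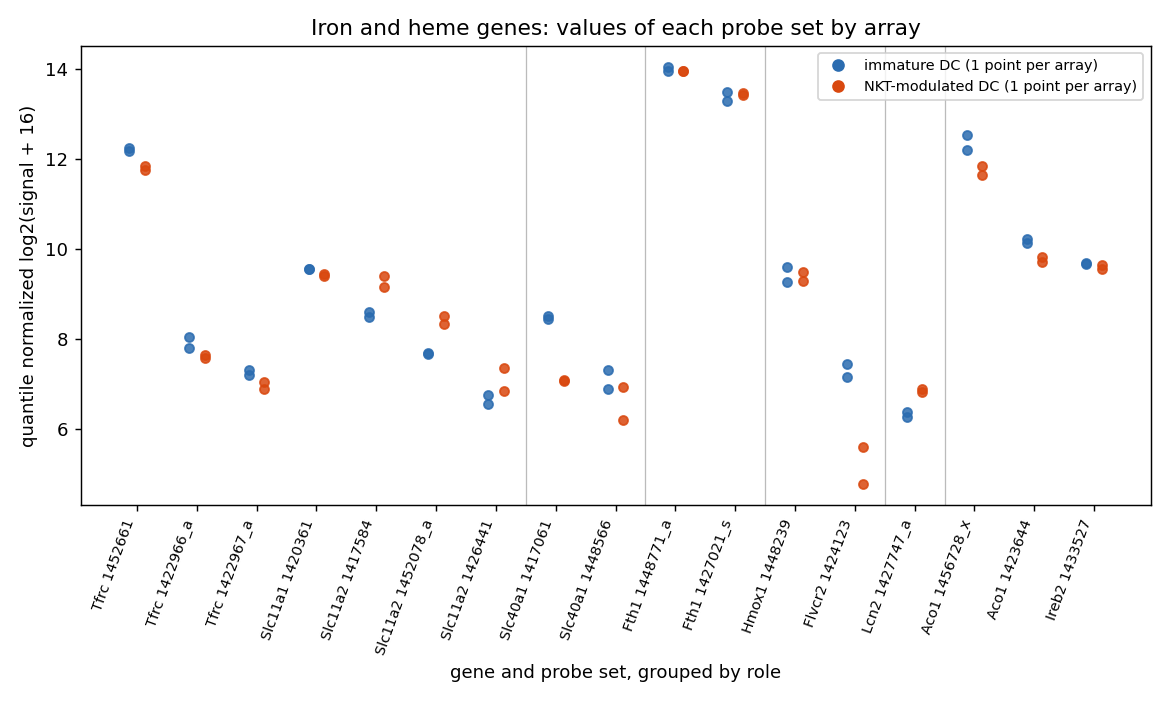
Values of the 17 tested probe sets, as quantile normalized log2(signal + 16) on the y axis, with 1 point per array and vertical lines between roles. Only the groups within a probe set can be compared, since signals of different probe sets are not on a common scale; for Slc40a1 1417061_at and Flvcr2 the NKT-modulated arrays lie well below the immature ones.

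The arrays carried the markers of the labelled cell type. Itgax, the integrin CD11c, had signals between 4643 and 5537 in the 4 arrays and did not pass (adjusted p = 0.204), nor did the MHC class II gene H2-Ab1 (adjusted p = 0.631). Of 11 DC markers, 2 were higher, Batf3 and Irf8, and 0 were lower. At an unadjusted limma p under 0.05, 2 were lower, Cd209a with a change of -0.70 and Flt3 with one of -0.54. The count called lower was 2 when signals below the 40th percentile were filtered out, and 1 without further normalization. Without NKT-modulated replicate 1 or 2 the count called higher was 1. Markers of T and NKT cells moved with the comparison: 11 of 17 were higher and 0 lower, also 0 at an unadjusted limma p under 0.05. Their summed signal was 1741 to 1886 in immature and 7251 to 9638 in NKT-modulated DC. The largest immature signals were those of Il2ra, 805.5 and 700.2, and of Zap70, 568.2 and 469.4, which was not called. The genes with the smallest p started lower. Cd3g went from 19 and 15 to 1401 and 1046, Gata3 from 17 and 18 to 825.2 and 812.5, and Thy1 from 82 and 98 to 1883 and 1309. Of the 17, 6 were not called. None of the 17 was listed at 0, and the lowest value was a Tbx21 signal of 1.26 in an immature array. Beside the counts of these and of the lists below stand all 12393 genes at their brightest probe set. Of these genes, 5.99% were called higher and 6.88% lower, and 3487 had an unadjusted limma p under 0.05. A change in the cells present and a change in the RNA of each cell cannot be told apart in these bulk samples, and the part of T lineage RNA in the results was not tested.

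RefSeq promoter windows of the GRCm38.p6 assembly were matched by symbol for 7 of the 10 genes, 9 windows in all; Slc11a2, Slc40a1 and Hmox1 had no entry. Each window holds 250 bases before and 50 after a transcription start. The 100 bases before the start are shown for Flvcr2, Aco1 and Tfrc because these 3 were lower together and have an entry. For Tfrc the more upstream of its annotated starts is shown. All lie on the plus strand, and capitals mark the E-box CACGTG and the GC box GGGCGG or its reverse complement.
Flvcr2, chr12:85746439-85746538: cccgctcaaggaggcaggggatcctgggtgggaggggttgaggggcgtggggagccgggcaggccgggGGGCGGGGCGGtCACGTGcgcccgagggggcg
Aco1, chr4:40143165-40143264: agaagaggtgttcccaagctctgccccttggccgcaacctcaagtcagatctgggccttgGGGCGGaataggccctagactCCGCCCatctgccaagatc
Tfrc, chr16:32608796-32608895: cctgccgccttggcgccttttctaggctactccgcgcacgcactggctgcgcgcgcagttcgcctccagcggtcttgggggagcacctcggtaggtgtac

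The E-box was found, on either strand, in 1 of the 9 windows, that of Flvcr2, 20 bases before the start, and in 7.15% of 32851 windows of all genes. The GC box was found in 6 of the 9, including those of Fth1, Ireb2 and Lcn2, which did not pass, and in 35.7% of all windows. For Tfrc the matches lie in the window of a more downstream start, at positions -35 and 4 from it, and not in the stretch shown. In Flvcr2, 2 GC box matches overlap by their outer letter. The antioxidant response core TGACNNNGC and the interferon gamma activated site TTCNNNGAA were in 0 of the 9 windows and in 12.4% and 8.3% of all windows. These matches describe the letters in the windows and are neither evidence of binding nor of its absence.

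The export gene Slc40a1 was lower in NKT-modulated DC. It encodes ferroportin, the known exporter of iron from cells, and has 2 probe sets here. Signals of probe set 1417061_at were 352 and 386 in immature DC and 115 and 111 in NKT-modulated DC. The groups lay far apart and the arrays within each were close, with SDs of 0.04 and 0.02 on the normalized log2 scale (n = 2 arrays per group). The change, NKT-modulated minus immature, was -1.40 ± 0.17 (SE, n = 2 arrays per group, as for every change below), with a 95% confidence interval of -1.80 to -1.0 and adjusted p = 0.00441 by limma. With any 1 array left out it was -1.42 to -1.38, with adjusted p = 0.0227 to 0.0440. The other probe set, 1448566_at, which the annotation pairs with the same sequence accession, was weaker and more variable. Its signals were 147 and 112 in immature DC and 104 and 54.2 in NKT-modulated DC, and its normalized values overlapped between the groups. Its change was -0.53 ± 0.32 (adjusted p = 0.381), with an interval of -1.32 to 0.25 that meets that of the first probe set; whether the 2 differ was not tested. The mean of both probe sets changed by -0.97 ± 0.20 (adjusted p = 0.0262 over 12393 genes).

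The uptake genes split by gene. Tfrc, the transferrin receptor through which most cells take up iron, was lower at its brightest probe set. The signals of 1452661_at were 4577 and 4815 in immature DC and 3550 and 3592 in NKT-modulated DC. The groups did not overlap, and the change was -0.41 ± 0.08 (interval -0.60 to -0.22, adjusted p = 0.0257), or 1.33-fold lower. The 2 dimmer probe sets, 1422966_a_at and 1422967_a_at, gave -0.32 ± 0.18 (adjusted p = 0.346) and -0.29 ± 0.21 (adjusted p = 0.476). Their groups did not overlap either, with signals of 242 to 253 and 135 to 160 in immature DC and of 166 to 167 and 101 to 107 in NKT-modulated DC. All 3 thus had negative changes, and 1 passed. Their mean changed by -0.34 ± 0.10 (adjusted p = 0.0852 over 12393 genes).

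The call of Tfrc did not hold with fewer arrays or without normalization. Its adjusted p was 0.0894 without immature replicate 1, 0.0608 without immature replicate 2, 0.156 without NKT-modulated replicate 1 and 0.0928 without NKT-modulated replicate 2, with changes of -0.45 to -0.36. Without further normalization it was 0.0549. Most cell cycle genes moved the same way: 17 of 19 measured were lower and 0 higher, also 0 at an unadjusted limma p under 0.05. Tyms, with a change of -0.47 (adjusted p = 0.326), and Mki67, with one of 0.19 (adjusted p = 0.335), did not pass. The summed signal of the list was 22260 to 25640 in immature and 14390 to 14420 in NKT-modulated DC. The count called lower was 8 without immature replicate 1, 9 without immature replicate 2, 7 without NKT-modulated replicate 1 and 10 without NKT-modulated replicate 2, and it was 5 without the intensity trend. The part of proliferation in the Tfrc values was not tested.

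The array also holds 3 control probe sets along the Tfrc transcript, which were left out of normalization and of the test. The set for the 3' end had signals of 128 and 158 in immature and 101 and 102 in NKT-modulated DC. The set for the 5' end had signals of 54.2 and 58.5, then 46.0 and 36.8. On the unnormalized log2(signal + 16) scale these sets changed by -0.43 and -0.34, and in both the groups did not overlap. This scale differs from that of the changes above. On it 1452661_at, 1422966_a_at and 1422967_a_at changed by -0.39, -0.53 and -0.44, and the median over all probe sets tested was -0.10. The set for the middle gave 68.5 and 39.2, then 59.4 and 55.0, with overlapping groups and a change of 0.10. The ratio of the 3' to the 5' signal of Tfrc was 2.36 and 2.70 in immature and 2.19 and 2.77 in NKT-modulated DC, ranges that overlap. For the control sets of Gapdh it was 1.76 and 1.44, then 1.87 and 1.98, higher in NKT-modulated DC without overlap. For those of beta-actin it was 1.18 and 1.16, then 1.09 and 1.18, with overlap. No test was run on these sets or ratios, and a difference in RNA quality between the groups was not tested.

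Slc11a2 was higher. It encodes DMT1, which moves ferrous iron out of endosomes after the transferrin receptor has been taken in. Signals of 1417584_at were 382 and 396 in immature DC and 523 and 623 in NKT-modulated DC. Those of 1452078_a_at were 199 and 218, then 291 and 326. In both probe sets all NKT-modulated values lay above all immature ones, and the changes were 0.73 ± 0.14 (interval 0.38 to 1.07, adjusted p = 0.0262) and 0.74 ± 0.16 (interval 0.35 to 1.13, adjusted p = 0.0361). The dimmest probe set, 1426441_at, had signals of 93.9 and 84.4, then 98.8 and 136, and a change of 0.45 ± 0.27 (adjusted p = 0.372). The mean of the 3 changed by 0.64 ± 0.16 (adjusted p = 0.0506 over 12393 genes).

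The call of Slc11a2 at 1417584_at was lost with fewer arrays. Its adjusted p was 0.0739 without immature replicate 1, 0.107 without immature replicate 2, 0.0580 without NKT-modulated replicate 1 and 0.120 without NKT-modulated replicate 2, with changes of 0.59 to 0.85. Without further normalization it changed by 0.53 (adjusted p = 0.0795). At 1452078_a_at the adjusted p was 0.0985 to 0.156 with 1 array left out, and it was 0.128 without further normalization.

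Slc11a1, the phagosomal metal transporter NRAMP1 and a paralog of Slc11a2, did not pass. Its signals were 739 and 839 in immature DC and 632 and 634 in NKT-modulated DC. The groups did not overlap, but after normalization the change was only -0.14 ± 0.10 (interval -0.38 to 0.10, adjusted p = 0.456). In this fit the interval leaves out a fall of more than 0.38 on the log2 scale, a bound that depends on the scaling. Without further normalization the change was -0.31 ± 0.14 (adjusted p = 0.221 by limma). Within an array, where a scaling factor shared by all probe sets cancels at bright signals, the difference of Slc11a2 from Slc11a1 was 0.72 and 0.96 higher in the NKT-modulated arrays than the immature mean. The immature arrays lay 0.06 above and below that mean. The difference of Slc11a2 from Slc40a1 was 1.97 and 2.26 higher. With 2 arrays against 2 the smallest p of a two-sided exact permutation test is 0.333, which both differences had, so these values stand as a description.

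**Figure D2:**
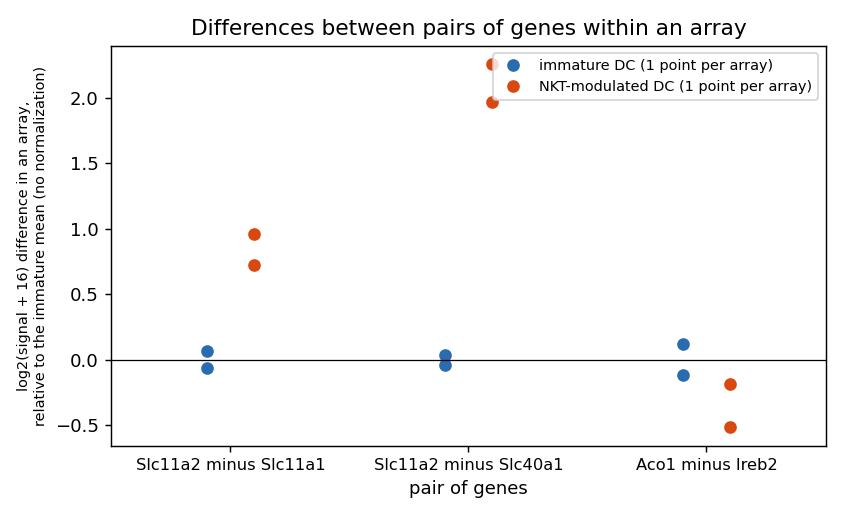
Differences between 2 genes within each array, in unnormalized log2(signal + 16) at the brightest probe set of each and relative to the mean of the immature arrays, with 1 point per array. The NKT-modulated arrays lie at 0.72 and 0.96 for Slc11a2 minus Slc11a1, at 1.97 and 2.26 for Slc11a2 minus Slc40a1, and at -0.19 and -0.52 for Aco1 minus Ireb2.

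The storage gene Fth1 showed no change that could be told from the spread. It encodes the heavy chain of ferritin, the ferroxidase subunit of the iron storage shell. Signals of 1448771_a_at were 17200 and 14480 in immature DC and 17080 and 16080 in NKT-modulated DC. Those of 1427021_s_at were 11390 and 9610, then 11680 and 11340. The groups overlapped in both, and the changes were -0.05 ± 0.08 (interval -0.23 to 0.14, adjusted p = 0.783) and 0.05 ± 0.10 (interval -0.18 to 0.28, adjusted p = 0.816). The sign differed between the probe sets and turned under other settings, so no direction is given. Probe set 1448771_a_at ranked 9 of 22626 by mean normalized value, and whether signals this bright still follow the amount of RNA was not tested.

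Heme genes split into one that fell and one that did not pass. Flvcr2, a membrane transporter first described as a heme importer and later as a choline transporter, had the widest change of the members. Its signals were 162 and 140 in immature DC and 12.3 and 31.1 in NKT-modulated DC. All immature values lay several times above the NKT-modulated ones, and the change was -2.10 ± 0.35 (interval -2.95 to -1.25, adjusted p = 0.0151). The size rests on the constant of 16 added before taking logs, since the NKT-modulated signals lie near it: with 1 in its place the change was -2.79 and with 64 it was -1.27. The NKT-modulated arrays also differed from each other, with an SD of 0.59 on the normalized log2 scale against 0.20 in immature DC. The call was lost without immature replicate 1 (adjusted p = 0.0860) and without immature replicate 2 (adjusted p = 0.0603), and held without NKT-modulated replicate 1 (adjusted p = 0.0454) or 2 (adjusted p = 0.0161), with changes of -2.55 to -1.72.

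Hmox1, the inducible heme oxygenase that frees iron from heme, did not pass. Its signals were 604 and 859 in immature DC and 587 and 663 in NKT-modulated DC. The groups overlapped, and the immature arrays differed more from each other than the groups did. The change was -0.04 ± 0.15 (interval -0.40 to 0.32, adjusted p = 0.920), and its sign turned under some settings. Hmox1 is a target of the transcription factors NRF2 and BACH1. Of 8 other measured targets, 3 were higher and 0 lower, also 0 at an unadjusted limma p under 0.05: Srxn1 by 0.46 ± 0.09, Txnrd1 by 0.49 ± 0.12 and Slc7a11 by 0.44 ± 0.10. Without further normalization 1 was higher, and the median of the list moved from 0.06 to -0.12. Without immature replicate 1 the count was 1, and without immature replicate 2, NKT-modulated replicate 1, NKT-modulated replicate 2 or the intensity trend it was 0, with 3, 3, 4 and 3 of the 8 at an unadjusted limma p under 0.05.

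Lcn2, lipocalin 2, which captures the siderophores by which bacteria collect iron, had higher signals that did not pass. They were 61.6 and 71.2 in immature DC and 101 and 90.9 in NKT-modulated DC. The groups did not overlap, and the change was 0.54 ± 0.23 (interval -0.03 to 1.10, adjusted p = 0.222). Lcn2 is also a gene of neutrophil granules, so markers of neutrophils are given beside it. Of 12 measured, 2 were higher, Ngp by 0.94 ± 0.19 and S100a8 by 0.62 ± 0.14, and 1 was lower, Mmp8 by -0.51 ± 0.08. At an unadjusted limma p under 0.05, 4 were higher and 1 was lower. Without further normalization 0 were called higher and 1 lower, and without immature replicate 2 there was 1 in each direction. Without immature replicate 1, NKT-modulated replicate 1, NKT-modulated replicate 2 or the intensity trend there were 0 in each, with 3, 4, 4 and 5 at an unadjusted limma p under 0.05. The summed signal of the list was 6054 to 6601 in immature and 5278 to 5303 in NKT-modulated DC, most of it from Mmp8. Without Mmp8 the sum of the other 11 was 1137 to 1353 in immature and 1563 to 1761 in NKT-modulated DC. Leaving out Mmp8 was a choice made after its values were seen, so nothing is inferred from this sum. None of the 12 was listed at 0, and the lowest signal was 2.39 for Ctsg. The part of neutrophil RNA in the Lcn2 signal was not tested.

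Of the iron sensors, Aco1 was called lower and Ireb2 did not pass. Aco1 encodes IRP1, which is a cytosolic aconitase when it holds an iron-sulfur cluster and binds mRNA hairpins when it does not. Signals of 1423644_at were 1158 and 1241 in immature DC and 792 and 840 in NKT-modulated DC. Those of 1456728_x_at were 4425 and 6056, then 3796 and 3126. The suffix x marks, in the naming of Affymetrix, a probe set that may also bind other transcripts. In both the immature values lay above all NKT-modulated ones, and the changes were -0.41 ± 0.10 (interval -0.65 to -0.17, adjusted p = 0.0484) and -0.61 ± 0.14 (interval -0.94 to -0.28, adjusted p = 0.0398). Their mean changed by -0.51 ± 0.08 (adjusted p = 0.0119 over 12393 genes).

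Both Aco1 calls lie near the threshold. Without immature replicate 1, immature replicate 2, NKT-modulated replicate 1 and NKT-modulated replicate 2, in that order, 1423644_at had adjusted p = 0.167, 0.117, 0.213 and 0.120, and 1456728_x_at had adjusted p = 0.0224, 0.103, 0.0951 and 0.167. The changes were -0.46 to -0.35 and -0.78 to -0.45. After cyclic loess normalization the adjusted p values were 0.0788 and 0.0574.

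Ireb2 encodes IRP2, the paralog of IRP1 that is broken down when iron is plentiful. Its signals were 788 and 920 in immature DC and 710 and 735 in NKT-modulated DC. The groups did not overlap, but the change was -0.08 ± 0.10 (interval -0.32 to 0.16, adjusted p = 0.702). The difference of Aco1 from Ireb2 within an array was taken at Aco1 1456728_x_at, which may also bind other transcripts, and not at 1423644_at. It was 0.19 and 0.52 lower in the NKT-modulated arrays than the immature mean. The immature arrays lay 0.12 above and below that mean. The exact permutation p was 0.333, the smallest possible, so unequal change of the 2 sensors was not shown by a test.

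**Figure D3:**
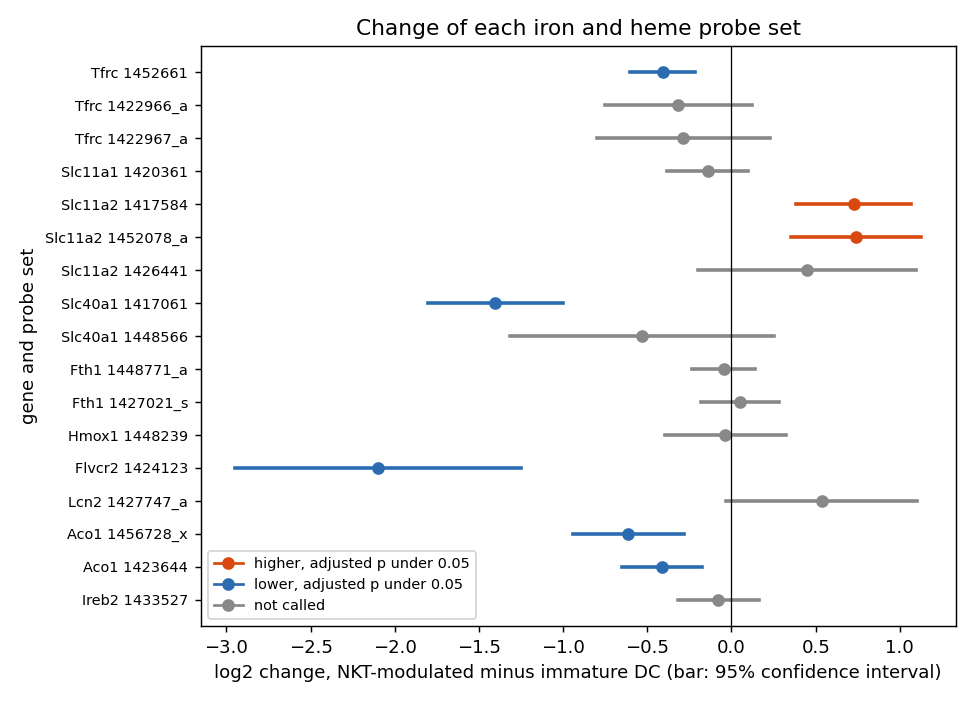
Log2 change of each of the 17 probe sets, NKT-modulated minus immature DC, on the x axis, with bars for the 95% confidence interval of the limma fit. The intervals of the 7 called probe sets exclude 0, from Flvcr2 at -2.10 to Slc11a2 at 0.74, and those of the other 10 include it.

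Other genes of the pathway mostly did not pass. Of 75 listed, 60 had a probe set with that gene as its only symbol, and 3 of these were higher and 3 lower at the brightest probe set; over all 12393 genes 5.99% were higher and 6.88% lower. The median change was -0.10 over the 60 and -0.04 over all genes. At an unadjusted limma p under 0.05, 7 were higher and 8 lower, compared with 3487 of all 12393 genes in either direction. The 3 lower genes all belong to the 15 of heme transport, capture and breakdown. Hmox2, the constitutive heme oxygenase, went from signals of 1793 and 1975 to 1021 and 1139 and fell by 0.69 ± 0.10 (adjusted p = 0.00883). Slc48a1, which moves heme out of lysosomes, fell by 0.62 ± 0.09 (adjusted p = 0.00922), from 1605 and 1721 to 1026 and 988, and both of its probe sets were called. Lrp1, a receptor that takes up heme bound to hemopexin among many other ligands, fell by 0.61 ± 0.11 (adjusted p = 0.0214), from 1376 and 1847 to 951 and 974. In these 3 genes the immature arrays lay above the NKT-modulated ones throughout.

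Among 18 genes of uptake, export and ferric reduction, Hfe and Cp were higher. Hfe, the hemochromatosis gene, whose protein binds the transferrin receptor, had signals of 1554 and 1844 in immature and of 2809 and 2865 in NKT-modulated DC, a rise of 0.79 ± 0.08 (adjusted p = 0.00293). With any 1 array left out the rise of Hfe was 0.74 to 0.83, and 1 of its 2 probe sets was called. Without the intensity trend Hfe did not pass (adjusted p = 0.0529 by limma), whereas Cp did (adjusted p = 0.0328). Cp, ceruloplasmin, a ferroxidase that works with ferroportin, rose by 1.16 ± 0.24 (adjusted p = 0.0318), from dim signals of 50.1 and 42.1 to 123 and 108, with 2 of its 7 probe sets called. Among 12 genes of iron-sulfur cluster assembly Fdx1, a mitochondrial ferredoxin, rose by 0.48 ± 0.11 (adjusted p = 0.0432), from 1126 and 1251 to 1702 and 1401.

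Several of these calls were lost with 1 array left out. Cp and Fdx1 lost theirs in all 4 such fits: without immature replicate 1, immature replicate 2, NKT-modulated replicate 1 and NKT-modulated replicate 2, in that order, the adjusted p was 0.110, 0.148, 0.123 and 0.0914 for Cp and 0.118, 0.134, 0.198 and 0.0588 for Fdx1. Lrp1 had 0.0772, 0.115 and 0.0866 without all but immature replicate 1, in the same order. Slc48a1 had 0.0627 and 0.0632 without NKT-modulated replicates 1 and 2, and Hmox2 had 0.0634 without NKT-modulated replicate 1.

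In 3 groups none of the measured genes was called by limma: 8 of heme synthesis, 4 of storage and its release, and 3 of sensing and regulation. At an unadjusted p under 0.05, 1, 0 and 1 of them were higher and 0, 0 and 0 lower. The erythroid enzyme gene Alas2 had signals of 3.27 to 7.64. Of 8 erythroid markers 0 were called, also 0 at an unadjusted limma p under 0.05, and their summed signal was 413 to 434 in immature and 399 to 404 in NKT-modulated DC. Macrophage markers, of which 3 of 12 were higher and 3 lower, went both ways, with Vcam1, an adhesion molecule, rising by 3.37 ± 0.15 and Cd14, a co-receptor for lipopolysaccharide, falling by 0.54 ± 0.08. The count called lower was 2 without immature replicate 2 and 0 without NKT-modulated replicate 1, NKT-modulated replicate 2 or the intensity trend, and in the last pair of these the count called higher was 2. In these fits 7 to 8 of the 12 had an unadjusted limma p under 0.05. The summed signal of the macrophage list was 38900 to 39420 in immature and 39510 to 40780 in NKT-modulated DC.

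**Figure D4:**
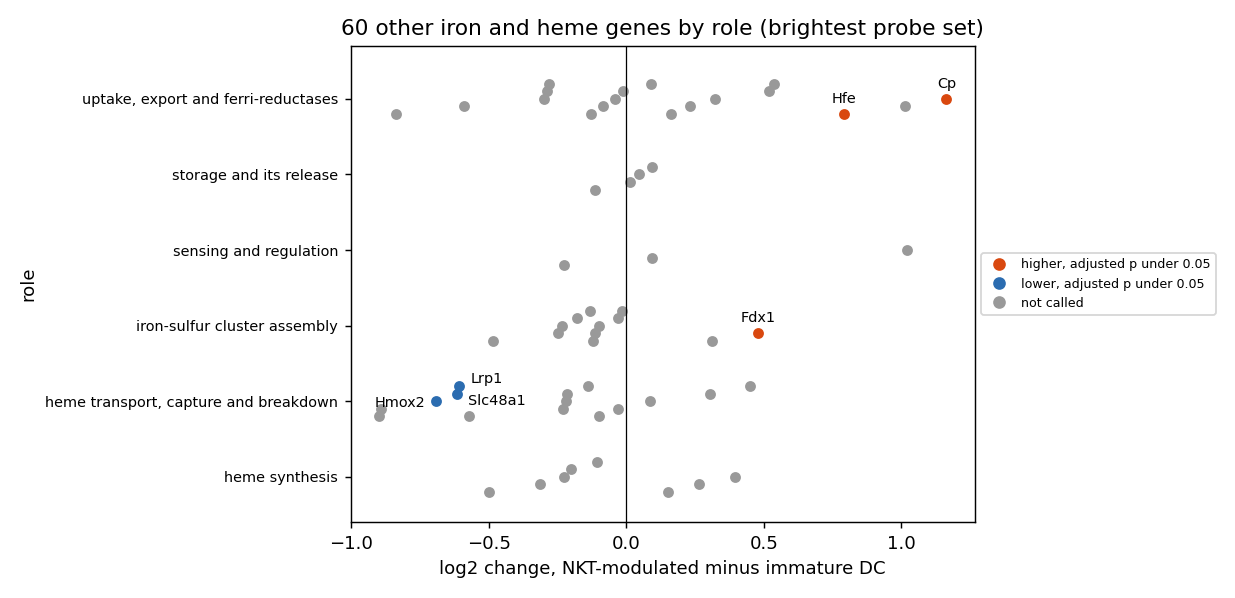
Log2 change, NKT-modulated minus immature DC, of 60 other iron and heme genes at their brightest probe set, by role, with 1 point per gene and names beside the 6 called genes. The called genes lie between -0.69 (Hmox2) and 1.16 (Cp), among 54 that did not pass.

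The calls of the members differed in how well they held. Over 11 alternative settings every called member probe set kept its direction. Slc40a1 1417061_at passed 0.05 in all of the settings at that threshold, with adjusted p = 4.93e-04 to 0.0440. Flvcr2 passed in all but the 2 that left out an immature array. The other 5 calls were lost in most settings that left out an array, the exception being Aco1 1456728_x_at without immature replicate 1, and without the intensity trend of the variance. With the adjusted p held to 0.001, the threshold in the series' design text, 0 member probe sets passed. At an unadjusted limma p under 0.05, 7 did, as did 5701 of all 22626 probe sets tested.

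**Figure D5:**
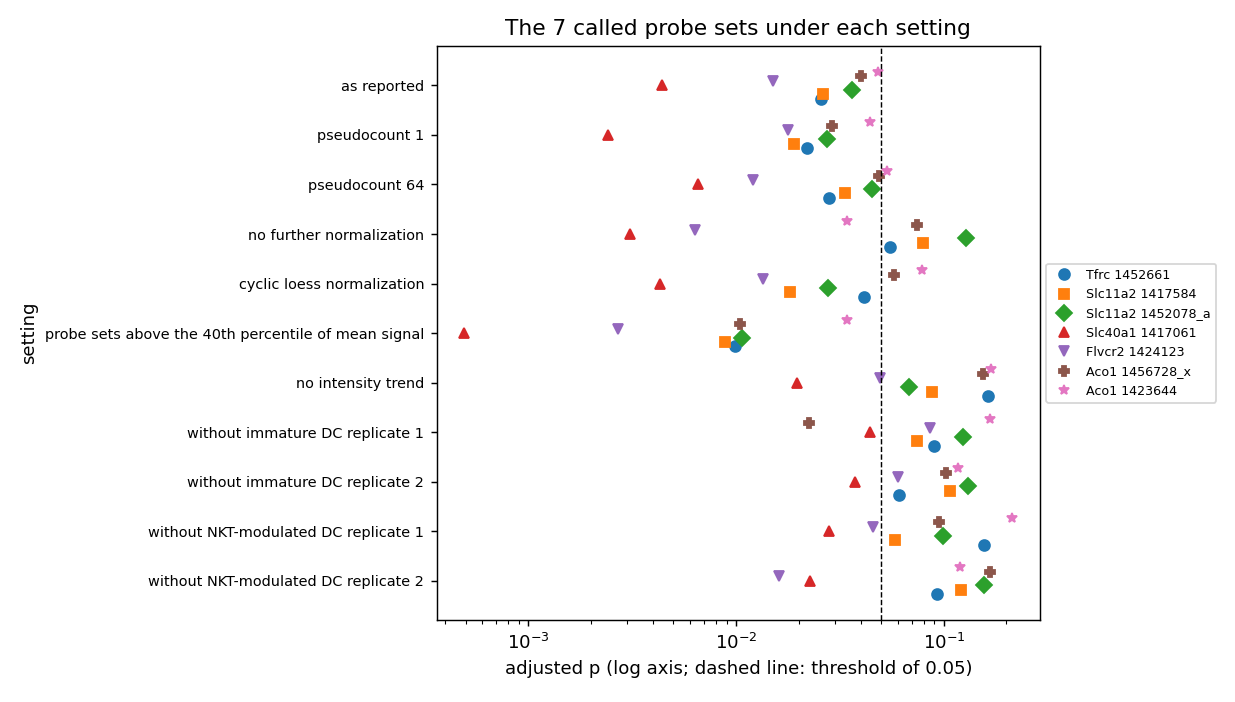
Adjusted p of the 7 called probe sets, on a log axis, under the reported setting and 10 alternatives, with 1 marker per probe set and a dashed line at 0.05. Slc40a1 stays left of the line in every setting shown, whereas Tfrc and Slc11a2 lie right of it whenever an array is left out.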

How the data were processed

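The table holds 1 intensity per probe set and array, on a linear scale, as deposited by the authors, who analysed the array images with GCOS per the submitters' processing notes. Not given in the sources used here are its version, the summary method and any scaling target. The series' design names an array type with more probe sets than the 22690 in the table, and its labelling kit differs from that in the sample labels. Their small number, 4 arrays, limits the precision.

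After adding 16 and taking log2, signals were quantile normalized, since quartiles differed by up to 0.27 between arrays, after leaving out 64 control probe sets. A fold change on this scale understates that of dim genes. Groups were compared over 22626 probe sets with limma 3.58.1 in R 4.3.3 (intensity trend, two-sided, Benjamini-Hochberg over all probe sets, threshold 0.05), with 2 residual and 4.13 prior degrees of freedom. The steps were tested on simulated data. Probe sets were named through the platform annotation: 20380 had 1 symbol, 691 several and 1555 none. Symbols were updated by gene ID through RefSeq. Genes outside the members were taken at their brightest probe set.

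All members were named with every probe set, as were the called genes of the pathway list and up to 3 per marker list. The members, lists and tests were chosen with earlier results of these data known, and the within-array differences and the promoter motifs after the values were seen. Alternatives were pseudocounts of 1 and 64, no or cyclic loess normalization, a filter on signals below the 40th percentile, no trend, a threshold of 0.001, the mean of a gene's probe sets, and each array left out.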

Additional observations from a re-analysis of the deposited data

How the results depend on the processing

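Of 187 fits of member probe sets under alternatives, 141 gave the same call or lack of one, 40 lost a call and 0 gained one. In the other 6 the sign of a change that was not called turned. Most of the 141 were fits of probe sets that were not called as reported. All 40 losses fell on the 7 called probe sets, whose fits lost the call more often than they kept it. Member probe sets called were 2 higher and 5 lower as reported, 0 and 3 without further normalization, 3 lower after cyclic loess, 0 and 2 without the intensity trend, 0 and 0 at a threshold of 0.001, and 0 to 0 and 1 to 2 with 1 array left out; at an unadjusted limma p under 0.05 they were 2 to 3 and 5 to 6 in these fits. Over all probe sets 1212 were higher and 1289 lower as reported, 625 and 420 without the trend, 197 and 36 at 0.001, and 624 to 822 and 446 to 625 with 1 array left out. Other iron and heme genes called were 3 higher and 3 lower as reported, 1 and 0 without the trend, 0 and 0 at 0.001 (with 15 of the 60 at an unadjusted limma p under 0.05), and 1 to 1 and 0 to 3 with 1 array left out. The cause was not tested. A lone array left in a group is assumed to vary like the other group. The sign of Fth1 1448771_a_at turned to 0.071 without further normalization and to 6.8e-04 without immature replicate 1 (-0.085 to 6.8e-04 with 1 array left out), that of Fth1 1427021_s_at to -0.061 without immature replicate 2 (-0.061 to 0.16 with 1 array left out), and the mean of the Fth1 probe sets changed by 0.0016. Hmox1 turned to 0.029 after cyclic loess, 0.13 without immature replicate 2 and 0.062 without NKT-modulated replicate 1 (-0.20 to 0.13 with 1 array left out). No paired analysis was possible because the labels give no replicate numbers shared by the groups. No detection calls were used, so how far dim signals such as those of Flvcr2 in NKT-modulated DC stand above background is not known here.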
